A study of Mus musculus with 9 samples.

Results

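The 43 genes described here act late in the cell cycle, in the entry into mitosis, at the kinetochore, on the spindle and in the division of the cell. They were chosen by name for these roles, and all 43 were found among the 24341 genes of the deposited table. Livers were collected 48 hours after treatment from 9 wild-type C57BL/6 mice. Of these, 3 mice (2, 5 and 9) had been given anti-CD40, the antibody FGK45, which activates the CD40 receptor on immune and other cells, and 6 control mice (3, 4, 7, 8, 11 and 12) had been given PBS according to their labels. The labels give no age, while the methods of the study describe young adult, sex-matched mice in general and state that mice without the usual fall in blood B cells after anti-CD40 were left out. RNA of whole liver tissue was sequenced from the 3′ end of each transcript and quantified as FPKM, a read count scaled to transcript length and to the mapped reads of the library. Because FPKM divides by transcript length and 3′ reads do not grow with length, levels are compared here within a gene and not between genes.

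Mitosis is started by the kinase Cdk1 together with A- and B-type cyclins, and it ends when the anaphase-promoting complex marks cyclins and securin for destruction. Between these steps the kinetochores attach chromosomes to the spindle, the checkpoint delays anaphase until all are attached, and kinesins, the chromosomal passenger complex and centralspindlin build the midzone and divide the cell. Adult hepatocytes rarely divide but can re-enter the cell cycle after injury, and immune cells can divide in the liver as well. Many of these genes are transcribed together late in the cell cycle, and their promoters often hold a CHR element, bound by the DREAM and MYB-MuvB complexes, and CCAAT boxes, bound by NF-Y. In whole tissue, more dividing cells and more mitotic RNA in each cell cannot be told apart.

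The promoters of 6 members are shown from 150 bases before to 50 bases after the gene start (RefSeq, GRCm38.p6, 5′ to 3′ on the strand of the gene). Capitals mark matches on either strand to the CHR letters TTTGAA or TTCGAA and to the CCAAT box letters CCAAT. Top2a, Ccnb2, Plk1 and Cdc20 are shown because they are among the members that rose in the anti-CD40 mice, Spc25 as a member that did not pass the test, and Pttg1 as the one that fell. The windows lie at chr11:99024140-99024339 (Top2a, minus strand), chr9:70421505-70421704 (Ccnb2, minus), chr7:122159285-122159484 (Plk1, plus), chr4:118437294-118437493 (Cdc20, minus), chr2:69206164-69206363 (Spc25, minus) and chr11:43425932-43426131 (Pttg1, minus).
Top2a: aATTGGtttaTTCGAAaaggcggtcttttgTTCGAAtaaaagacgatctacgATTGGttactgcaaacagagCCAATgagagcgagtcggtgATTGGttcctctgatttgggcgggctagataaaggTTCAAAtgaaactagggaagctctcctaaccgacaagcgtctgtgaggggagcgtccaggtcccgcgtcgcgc
Ccnb2: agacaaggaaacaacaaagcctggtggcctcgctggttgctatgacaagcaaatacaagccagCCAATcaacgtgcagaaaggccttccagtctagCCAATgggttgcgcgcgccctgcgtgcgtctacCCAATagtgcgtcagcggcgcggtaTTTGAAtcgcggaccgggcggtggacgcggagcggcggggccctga
Plk1: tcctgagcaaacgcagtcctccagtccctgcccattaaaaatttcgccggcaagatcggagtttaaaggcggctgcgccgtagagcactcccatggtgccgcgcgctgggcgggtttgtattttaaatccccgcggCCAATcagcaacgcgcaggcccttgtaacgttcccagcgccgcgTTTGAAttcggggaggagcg
Cdc20: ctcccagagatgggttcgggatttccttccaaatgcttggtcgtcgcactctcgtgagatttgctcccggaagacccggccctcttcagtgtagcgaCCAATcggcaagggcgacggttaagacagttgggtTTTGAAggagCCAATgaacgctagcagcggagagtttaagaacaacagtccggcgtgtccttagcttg
Spc25: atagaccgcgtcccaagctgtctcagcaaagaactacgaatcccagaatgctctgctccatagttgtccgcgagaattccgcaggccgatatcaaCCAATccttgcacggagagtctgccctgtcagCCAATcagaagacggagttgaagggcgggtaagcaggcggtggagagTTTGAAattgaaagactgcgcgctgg
Pttg1: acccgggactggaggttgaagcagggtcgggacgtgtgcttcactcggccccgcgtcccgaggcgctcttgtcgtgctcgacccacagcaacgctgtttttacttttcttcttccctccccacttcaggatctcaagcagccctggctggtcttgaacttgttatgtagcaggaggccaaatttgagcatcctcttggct
In the windows shown, Top2a held 3 CHR and 4 CCAAT matches and Pttg1 held none. The RefSeq start used for Pttg1 lies downstream of the outer end of the gene in the deposited table, and another start was not examined. The same holds for the starts of Kif2c and Nusap1, which are counted below.

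Most of these promoters held both CHR and CCAAT letters. Of the 43 members, 37 had a RefSeq window of 300 bases (250 before and 50 after the start), and Aurkb, Ccna2, Foxm1, Incenp, Kif20a and Tpx2 were not examined. The CHR letters were present in 29 of the 37 windows (78.4%), against 19.4% of the 27025 genes with a window. CCAAT letters were present in 27 windows (73%, against 37.9% of all genes), and 25 windows held both (67.6%, against 7.70%). In Cdca8 the letters of a CHR and a CCAAT match overlapped. The matches were also placed alike, as the CHR lay between 50 bases before and 50 after the start in 27 members (73%, against 5.29% of all genes). A CHR fell in the first 50 bases after the start in 51.4% of members and 2.40% of all genes, and a CCAAT box fell 51 to 100 bases before the start in 45.9% and 13.0%. Nuf2, Nusap1, Plk4, Cenpe, Mad2l1, Pttg1, Birc5 and Ccnb1 had no CHR match in the window. A match is a run of letters and not a shown binding site. Of the 32 members with a window that rose, 25 had a CHR match, and so had Ccnf and Spc25, which did not pass the test.

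**Figure D1:**
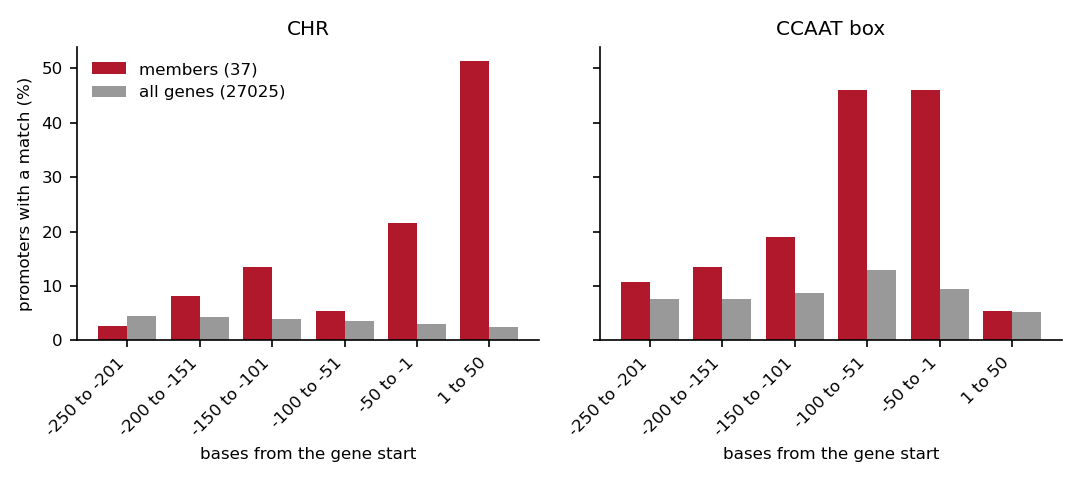
Share of promoters with a CHR match (left) or a CCAAT box match (right) in bins of 50 bases around the gene start, in percent, for the 37 members with a RefSeq window (red) and all 27025 genes with one (grey). CHR matches in members peak in the first 50 bases after the start (51.4%), and CCAAT boxes from 1 to 100 bases before it (45.9% in each of the 2 bins).

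Nearly all of the 43 genes were higher in the livers of anti-CD40 mice. With limma on log2(FPKM + 0.1), called at a Benjamini-Hochberg adjusted p under 0.05 over the 13807 genes whose mean reached 0.1 FPKM, 38 of the 41 members tested rose and 1, Pttg1, fell. Over all genes tested, 23.5% rose and 21.7% fell. These shares depended on the scaling: after removal of the abundant genes Saa1, Saa2 and Saa3 with rescaling of each mouse to one total, 40.7% of all genes rose and 11.9% fell, and 41 of 42 members tested rose and 1 fell. Ccnf and Spc25 did not pass the test, and Kif4 and Kif18b were under the filter on low values and were not tested in this fit. The median log2 fold change of the members tested was 2.35 (range -0.76 to 3.89), while that of all genes tested was 0.0056. A log2 fold change of at least 2 was reached by 31 members (5.28% of all genes tested were called at this size) and of at least 3 by 6 members (1.90% of all genes tested). Those 6 were Top2a, Plk1, Birc5, Ccna2, Ndc80 and Ccnb1. Without a filter, 40 of the 43 members rose and 1 fell, while 12.9% of all genes rose and 10.4% fell. The control mean was under 0.1 FPKM in 10 members, which met the filter, if at all, through their level after anti-CD40. Of the other 33, 30 rose, with a median over the 33 of 2.35.

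The groups were also compared without a model. In 40 of the 43 members every anti-CD40 mouse was above every control mouse, in Pttg1 every anti-CD40 mouse was below, and in Ccnf and Spc25 the groups overlapped. Among the 41 members tested, 38 did not overlap with anti-CD40 higher and 1 with anti-CD40 lower. Among all genes tested, these shares were 22.7% and 19.6%. A gene without overlap has a 2-sided exact permutation p of 0.0238, the smallest that the 84 splits of 9 mice into 3 and 6 can give. The fold changes are on the log2(FPKM + 0.1) scale, which understates the change of low genes.

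**Figure D2:**
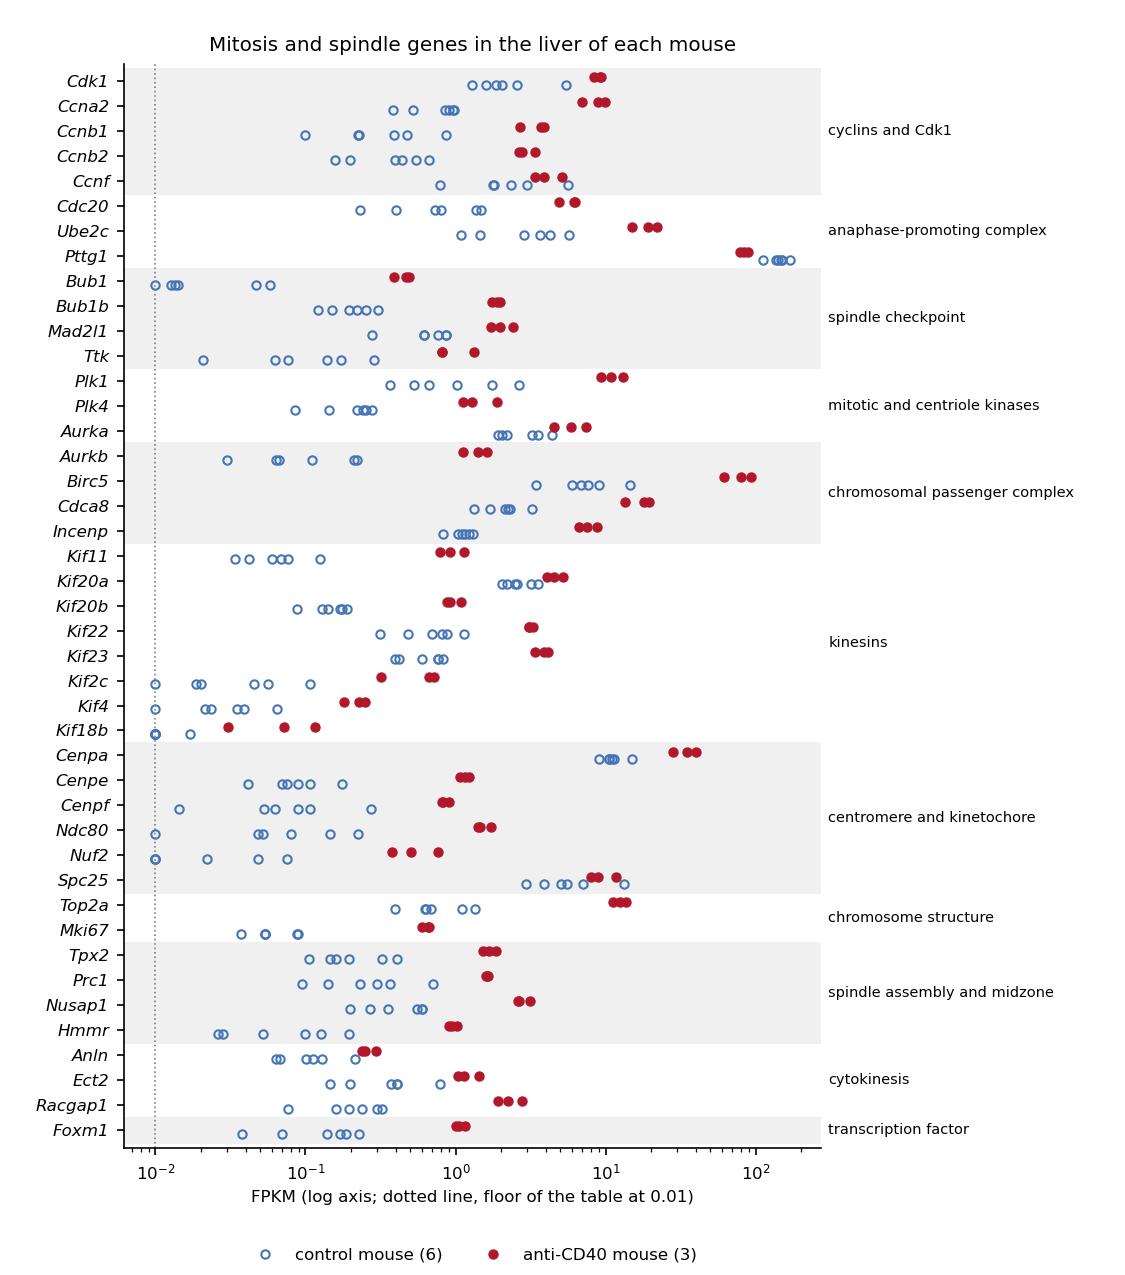
FPKM of the 43 members in each liver on a log axis, ordered by role, with 3 anti-CD40 mice as filled red points, 6 control mice as open blue points, and the floor of the table (0.01) as a dotted line. In 40 members all red points lie to the right of all blue points, in Pttg1 they lie to the left, and in Ccnf and Spc25 they overlap.

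Of the cyclins and their kinase, 4 of 5 rose. Ccna2 (chr3:36552606-36571996), cyclin A2 of S phase and early mitosis, had 9.86, 6.98 and 8.91 FPKM in anti-CD40 mice 2, 5 and 9, and 0.382 to 0.974 FPKM in the control mice (median 0.881). The groups were far apart, with a log2 fold change of 3.37 (standard error, SE, 0.28, limma adjusted p = 7.12e-06). Cdk1 (chr10:69336635-69352912), the kinase that drives entry into mitosis, had 9.32, 8.43 and 9.17 FPKM against 1.28 to 5.45 (median 1.96). Its log2 fold change was 1.98 (SE 0.36, limma adjusted p = 0.00125), and control mouse 12, at 5.45, stood above the other controls. The B-type cyclins Ccnb1 and Ccnb2 rose 9.05-fold and 7.33-fold by the ratio of group means. Ccnf (chr17:24223232-24251409), cyclin F, which is part of a ubiquitin ligase and binds no Cdk, had 3.38, 3.89 and 5.14 FPKM against 0.786 to 5.65 (median 2.08). Control mouse 12, again the highest, was above all 3 anti-CD40 mice, and the difference did not pass the test (log2 fold change 0.87, 95% interval -0.15 to 1.90, limma adjusted p = 0.149). Without mouse 12 it did, at 1.14 (limma adjusted p = 0.0267).

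The regulators and substrates of the anaphase-promoting complex went in both directions. Cdc20 (chr4:118428093-118437343), its activator in mitosis, had 6.29, 4.86 and 6.20 FPKM against 0.232 to 1.48 (median 0.765), a log2 fold change of 2.84 (SE 0.45, limma adjusted p = 5.26e-04). Ube2c, its ubiquitin-conjugating enzyme, rose from 3.17 ± 1.74 (SD, n = 6) to 18.7 ± 3.44 FPKM (SD, n = 3). Pttg1 (chr11:43420248-43426248), securin, which holds separase inactive until anaphase, was the only member that fell. It had 78.4, 83.3 and 89.3 FPKM against 112 to 168 (median 144), so that every anti-CD40 mouse was below every control mouse. The log2 fold change was -0.76 (SE 0.13, limma adjusted p = 7.90e-04). It was -0.36 with quantile normalization and -0.39 after removal of the serum amyloid genes Saa1, Saa2 and Saa3 and rescaling, and it was past the threshold in all 19 alternatives.

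All 4 genes of the spindle checkpoint rose. Bub1b (chr2:118598211-118641592), which encodes BubR1, an inhibitor of Cdc20, had 1.90, 1.96 and 1.75 FPKM against 0.122 to 0.304 (median 0.207), a log2 fold change of 2.71 (SE 0.21, limma adjusted p = 5.46e-06). These values rest on 118 to 146 reads per anti-CD40 mouse and 8 to 19 per control mouse. Mad2l1 (chr6:66535468-66540991), which encodes Mad2, changed least in this group, with 2.40, 1.74 and 1.97 FPKM against 0.276 to 0.870 (median 0.691) and a log2 fold change of 1.53 (SE 0.29, limma adjusted p = 0.00157). The kinase genes Bub1 and Ttk had log2 fold changes of 2.13 and 2.33. Bub1 was read 31 to 45 times per anti-CD40 mouse and 0 to 5 times per control mouse. Reads are given where the steps between FPKM values returned whole numbers, which held for 26 members, and they are the smallest whole numbers that fit.

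Among the kinases, Plk1 (chr7:122159437-122169875), polo-like kinase 1, which acts at centrosomes, kinetochores and the midzone, had 10.9, 9.31 and 13.1 FPKM against 0.367 to 2.66 (median 0.840). Its log2 fold change was 3.41 (SE 0.50, limma adjusted p = 3.17e-04), and the reads were 388 to 507 against 14 to 96. Plk4, the kinase that starts centriole duplication, rose by 2.35 on the log2 scale. Aurka (chr2:172356190-172370570), Aurora A, a kinase of spindle poles, had 5.92, 4.54 and 7.46 FPKM against 1.92 to 4.43 (median 2.72). The lowest anti-CD40 mouse (mouse 5) and the highest control mouse (mouse 12) were almost level, and the log2 fold change was 1.06 (SE 0.28, limma adjusted p = 0.0104). Without anti-CD40 mouse 9 it was 0.89 and no longer passed (limma adjusted p = 0.0561).

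The chromosomal passenger complex, which corrects attachments and then moves to the midzone, rose as a whole: all 4 subunits were called, with log2 fold changes from 2.68 to 3.40. Birc5 (chr11:117849237-117855743), survivin, had 92.5, 62.0 and 80.5 FPKM against 3.42 to 14.6 (median 7.23), a log2 fold change of 3.40 (SE 0.36, limma adjusted p = 3.57e-05). Incenp (chr19:9872297-9899533), the scaffold, had 8.82, 6.60 and 7.48 FPKM against 0.825 to 1.31 (median 1.13). Its control mice lay close together, and its log2 fold change of 2.68 had an SE of 0.16 (limma adjusted p = 1.20e-06). Aurkb, the kinase of the complex, was read 41 to 55 times per anti-CD40 mouse and 1 to 8 times per control mouse. Aurkb and Cdca8, which encodes borealin, had log2 fold changes of 2.84 and 2.95.

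Of the 8 kinesins, motors that slide, cross-link or shorten microtubules, 6 were tested and all 6 rose. Kif11 (chr19:37376403-37421859), the Eg5 motor that pushes the spindle poles apart, had 1.14, 0.789 and 0.926 FPKM against 0.0340 to 0.126 (median 0.0644). This was a log2 fold change of 2.66 (SE 0.22, limma adjusted p = 8.18e-06). Kif20b, Kif22, Kif23 and Kif2c lay between 2.08 and 2.46. Kif20a (chr18:34598615-34651736), a motor of the midzone, changed least, with 5.22, 4.06 and 4.54 FPKM against 2.04 to 3.54 (median 2.53) and a log2 fold change of 0.78 (SE 0.18, limma adjusted p = 0.00579). Its table position is shared with Brd8 and Cdc23, and Cdc23 lies over its 3′ end on the opposite strand.
Kif4 (chrX:100626065-100727271), a chromokinesin, was under the filter, with 0.250, 0.181 and 0.228 FPKM against 0.01 to 0.0644 (median 0.0291). Reads of Kif4 were 25, 17 and 20 against 0 to 6. Kif18b (chr11:102905519-102925124), which shortens astral microtubules, was also under it, with 0.0720, 0.0306 and 0.115 FPKM, while 5 control mice were at the floor of 0.01 and mouse 11 had 0.0169. These values are 5, 2 and 7 reads against 1 read in all control mice together, and no fold is given. In both genes every anti-CD40 mouse was above every control mouse (exact permutation p = 0.0238, 2-sided).

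At the centromere and kinetochore, 5 of 6 genes rose. Ndc80 (chr17:71496100-71526857), which binds microtubules at the outer kinetochore, had 1.45, 1.73 and 1.42 FPKM against 0.01 to 0.222 (median 0.0660), a log2 fold change of 3.17 (SE 0.32, limma adjusted p = 2.63e-05). Control mouse 8 had no read of it. Its partner Nuf2 was read 16 to 37 times per anti-CD40 mouse and 0 to 3 times per control mouse. Cenpa (chr5:30666886-30674837), the histone H3 variant of centromeres, had 39.9, 28.3 and 34.8 FPKM against 8.98 to 14.9 (median 10.8), a log2 fold change of 1.61 (SE 0.16, limma adjusted p = 2.86e-05). Cenpe and Cenpf had log2 fold changes of 2.72 and 2.34. Spc25 (chr2:69193895-69206213) encodes a subunit of the same Ndc80 complex and was the exception, with 11.7, 8.03 and 8.87 FPKM against 2.95 to 13.2 (median 5.31). Control mouse 12 was again above all 3 anti-CD40 mice, and the log2 fold change of 0.74 did not pass the test (95% interval -0.11 to 1.60, limma adjusted p = 0.142). Without mouse 12 it was 0.99 and passed (limma adjusted p = 0.0128).

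Both genes of chromosome structure rose. Top2a (chr11:98992947-99024189), topoisomerase II alpha, which untangles sister chromatids, had the largest log2 fold change of the members on log2(FPKM + 0.1): 13.6, 11.2 and 12.4 FPKM against 0.397 to 1.35 (median 0.660). The log2 fold change was 3.89 (SE 0.30, limma adjusted p = 5.09e-06). By the ratio of group means it was 15.6-fold, below Nuf2 (18.6), Bub1 (17.3) and Ndc80 (16.5), whose control levels are near or under the pseudocount. Mki67 (chr7:135689788-135716379), the Ki-67 protein that coats mitotic chromosomes and is used as a stain for cycling cells, had 0.667, 0.597 and 0.657 FPKM against 0.0371 to 0.0898 (median 0.0537). Its log2 fold change was 2.20 (SE 0.19, limma adjusted p = 1.13e-05), from 123 to 146 reads per anti-CD40 mouse and 7 to 18 per control mouse. By the ratio of group means Mki67 was 10.2-fold higher, a change that the pseudocount of 0.1 makes smaller on the log2 scale.

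The 4 genes of spindle assembly and the midzone had similar log2 fold changes, from 2.24 to 2.56. Hmmr (chr11:40701388-40733437), a spindle pole protein, had 0.948, 1.02 and 0.902 FPKM against 0.0260 to 0.194 (median 0.0760), a log2 fold change of 2.56 (SE 0.29, limma adjusted p = 5.97e-05). Prc1 (chr7:80294451-80316259), which bundles the microtubules of the midzone, had 1.61, 1.61 and 1.65 FPKM against 0.0954 to 0.707 (median 0.266). The anti-CD40 mice were almost equal while the control mice spread widely, with mouse 12 highest, and the log2 fold change was 2.24 (SE 0.38, limma adjusted p = 8.67e-04). Tpx2, which activates Aurora A, and Nusap1 had log2 fold changes of 2.54 and 2.53.

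All 3 cytokinesis genes rose, by very different amounts. Racgap1 (chr15:99620496-99651656), a subunit of centralspindlin together with the product of Kif23, had 2.78, 1.91 and 2.24 FPKM against 0.0768 to 0.325 (median 0.215). Its log2 fold change was 2.98 (SE 0.28, limma adjusted p = 1.69e-05). Ect2, the exchange factor that activates RhoA at the cleavage furrow, had a log2 fold change of 1.53. Anln (chr9:22055460-22389206), anillin, a scaffold of the contractile ring, had 0.294, 0.248 and 0.237 FPKM against 0.0637 to 0.213 (median 0.106). With 24 to 34 reads against 6 to 23 the groups were close, and the log2 fold change was 0.78 (SE 0.24, limma adjusted p = 0.0241). The call of Anln was lost with quantile normalization (0.35, limma adjusted p = 0.183) and without any one of the anti-CD40 mice (limma adjusted p from 0.0568 to 0.0941). Its position in the table is shared with 15 other genes, so that its values are uncertain.
Foxm1 (chr6:128362994-128385144) encodes a transcription factor that activates many of the other members in G2 phase. It had 1.15, 1.05 and 1.002 FPKM against 0.0377 to 0.229 (median 0.154), a log2 fold change of 2.35 (SE 0.28, limma adjusted p = 8.96e-05).

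**Figure D3:**
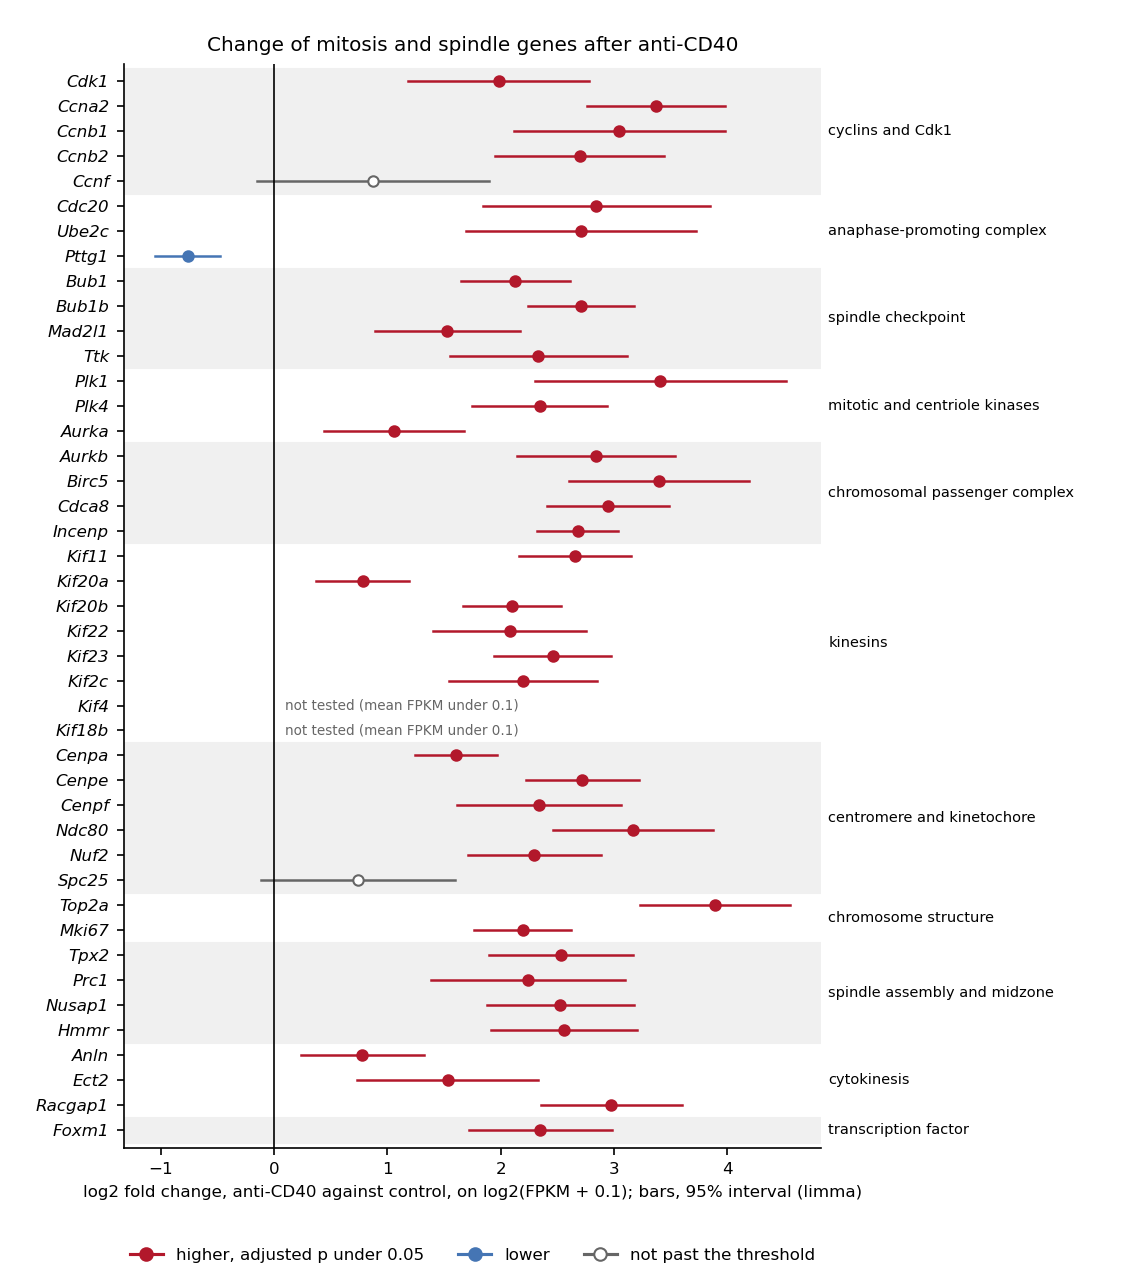
Log2 fold change of each member, anti-CD40 against control mice, on log2(FPKM + 0.1), with its 95% interval from limma and the members ordered by role. Red points rose, the blue point (Pttg1, -0.76) fell, the intervals of the open points (Ccnf and Spc25) cross 0, and Kif4 and Kif18b were not tested.

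Of the members, 8 share their table position with another gene (Ccna2, Ccnf, Cdc20, Kif20a, Tpx2, Nusap1, Anln and Foxm1), so that reads may have been divided between them, and 31 of the 33 tested members with a position of their own rose. Another gene on the opposite strand covers the last 500 bases of Ccna2, Cdc20, Kif20a and Prc1, and whether the counting used strand is not given in the sources used here.

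Within the groups, some mice were high or low for many members at once. The median over the 43 members of the difference from the control mean was 2.55, 2.30 and 2.27 on the log2 scale in anti-CD40 mice 2, 5 and 9. Anti-CD40 mouse 2 was the highest of its group in 29 members and mouse 5 the lowest in 27. In the control group the median ran from -0.44 in mouse 3 to 0.49 in mouse 12. Control mouse 12 was the highest control in 28 of the 43 members, among them Cdk1, Ccnb1, Plk1, Birc5, Cdc20 and Top2a, and mouse 3 was the lowest in 25. The members come from the same RNA samples, so these counts describe the mice and are not separate observations. Relative depth, read from the size of FPKM steps, was 0.991 to 1.13 after anti-CD40 and 0.870 to 1.06 among the controls, with 0.920 in mouse 12 and 0.974 in mouse 3.

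**Figure D4:**
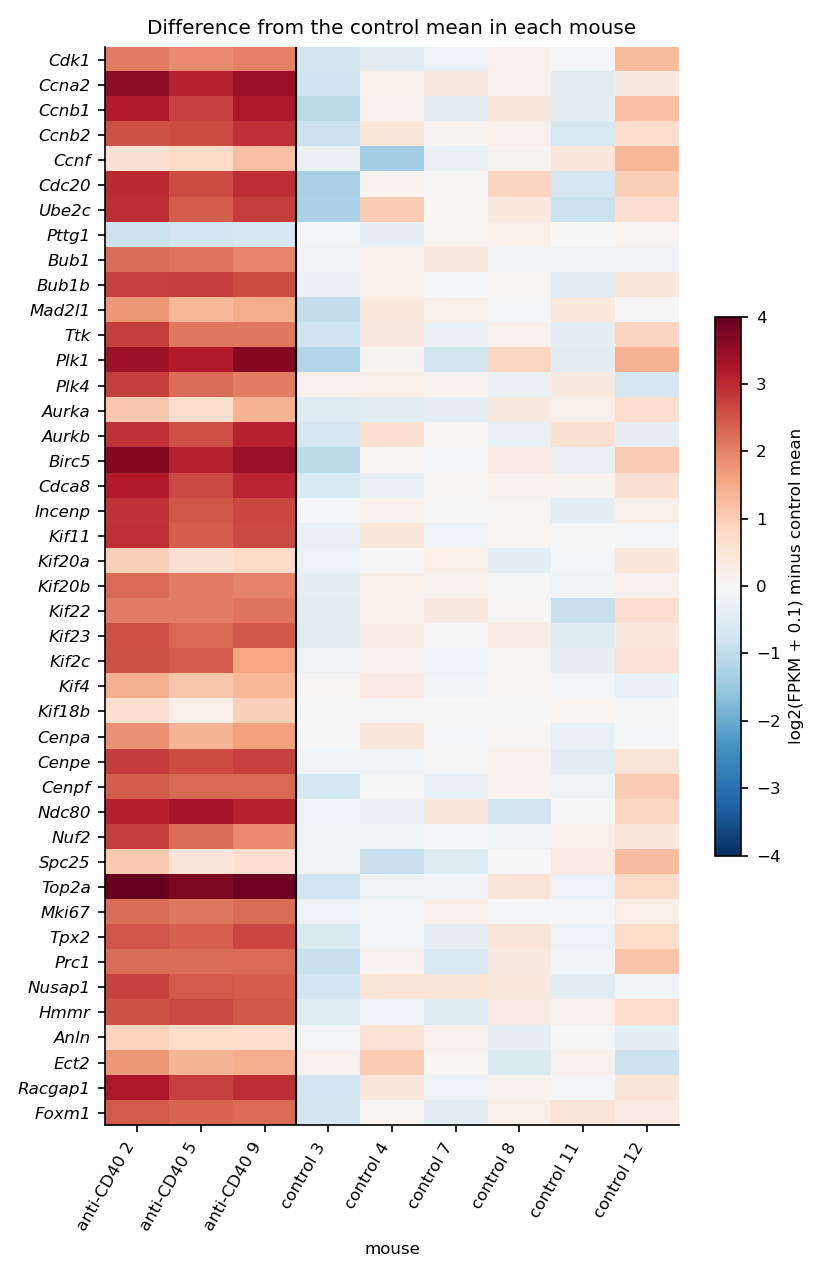
Difference of log2(FPKM + 0.1) from the mean of the 6 control mice for each member (43 lines) in each mouse (9 columns, anti-CD40 mice left of the black line), from blue (lower) to red (higher). The anti-CD40 columns are red for every member but Pttg1, and among the controls mouse 12 is mostly red and mouse 3 mostly blue.

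Other genes of mitosis rose less uniformly. Of 112 further genes listed for mitosis, 111 were in the table and 101 were tested: 64 rose, 4 fell and 33 did not pass, with a median log2 fold change of 1.24. The largest were Ska1, of a complex that couples kinetochores to microtubules (log2 fold change 3.32), Cep55, of the abscission site (3.29), and the kinesin gene Kif15 (3.28). Kif15 (control mean 0.0903 FPKM) and other genes that rose, such as Espl1 (0.0284), met the filter only through their level after anti-CD40. The count and the median include such genes. All 5 genes of sister chromatid cohesion and separation rose, among them the separase gene Espl1 (2.00) and the shugoshin gene Sgol1 (2.77), and so did 6 of 8 condensin genes. Of 14 genes tested for subunits and regulators of the anaphase-promoting complex, 3 rose, Anapc11 (-0.53) and Anapc13 (-0.73) fell, and the median log2 fold change was 0.13, with shares near those of all genes tested (23.5% rose and 21.7% fell). The largest value was that of Fbxo5 (2.59), which encodes an inhibitor of the complex and not one of its core subunits. Kifap3 (-0.59) and Haus4 (-0.69) were the other genes that fell. Of the checkpoint genes outside the 43, 1 of 5 rose (Trip13, 2.29), near the share of all genes tested that rose (23.5%). Bub3, the partner of Bub1 and BubR1, had 0.22 (limma adjusted p = 0.199). Espl1, Sgol1, Fbxo5, Trip13 and Bub3 were named after their values were seen.

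Genes of S phase, which precedes mitosis, rose as well. Of 36 tested, 25 rose and 3 fell, with a median log2 fold change of 1.14. Over all genes tested, 23.5% rose and 21.7% fell. The largest log2 fold changes were those of Uhrf1, which maintains DNA methylation at replication (3.43), and the licensing genes Cdc6 (2.94) and Mcm5 (2.83). Uhrf1, Cdc6 and Orc1 had control means of 0.0551, 0.0988 and 0.0294 FPKM and met the filter only through their level after anti-CD40. The count and the median of the S phase genes include them. Among the genes that fell were Mcm10 (-1.55) and Tk1 (-1.66). Tk1 shares its table position with Afmid, a gene of tryptophan breakdown. Mcm10, an initiation factor, has a position of its own and had 2.81, 3.74 and 4.35 FPKM in the anti-CD40 mice against 6.68 to 21.1 (median 9.38), with control mouse 12 highest.

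Of 16 genes that encode the complexes acting on CHR and CCAAT elements, 5 rose and 3 fell, with a median log2 fold change of 0.13. These shares were near those of all genes tested (23.5% and 21.7%). Mybl2, which encodes B-Myb, had 0.696, 0.466 and 0.383 FPKM against 0.0138 to 0.0605 (median 0.0462), a log2 fold change of 2.09 (SE 0.23, limma adjusted p = 4.48e-05). It was read 26 to 54 times per anti-CD40 mouse and 1 to 4 times per control mouse. Mybl1 (1.19), Rbl1, which encodes p107 (1.21), the NF-Y subunit gene Nfya (1.08) and Tfdp1 (0.85) also rose. Mybl2 and Mybl1 had control means of 0.0426 and 0.0476 FPKM and met the filter only through their level after anti-CD40. Tfdp2 (-1.02), the NF-Y subunit gene Nfyb (-0.50) and Rbbp4 (-0.42) fell, and the MuvB genes Lin9, Lin37, Lin52 and Lin54 did not pass the test (log2 fold changes from -0.21 to 0.13).

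The inhibitors of cyclin-dependent kinases did not go one way. Cdkn1a, which encodes p21, had 37.5, 55.7 and 61.1 FPKM in the anti-CD40 mice. In the control mice it ran from 2.24 to 28.5 (median 4.78), and mice 11 (24.4) and 12 (28.5) stood far above the other 4. Its log2 fold change was 2.87 (SE 0.79, limma adjusted p = 0.0128), and it passed the threshold in 17 of 19 alternatives. Cdkn2a rose from 0.525 ± 0.183 (SD, n = 6) to 2.46 ± 0.565 FPKM (SD, n = 3), and Cdkn2b from 0.202 ± 0.129 (SD, n = 6) to 0.991 ± 0.195 (SD, n = 3). Cdkn2d had a log2 fold change of 0.74 (limma adjusted p = 0.00102). Cdkn1c, which encodes p57, fell from 2.21 ± 0.561 (SD, n = 6) to 0.780 ± 0.0715 FPKM (SD, n = 3), a log2 fold change of -1.36 (limma adjusted p = 4.67e-04). Cdkn1b (-0.13) and Cdkn2c (-0.22) did not pass the test, and their sign turned under another scaling. Control mouse 12 was the highest control mouse for Cdkn1a, as it was for 28 of the 43 members. Control mouse 11, also high for Cdkn1a, was above the control mean in only 14 of the 43 members.

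**Figure D5:**
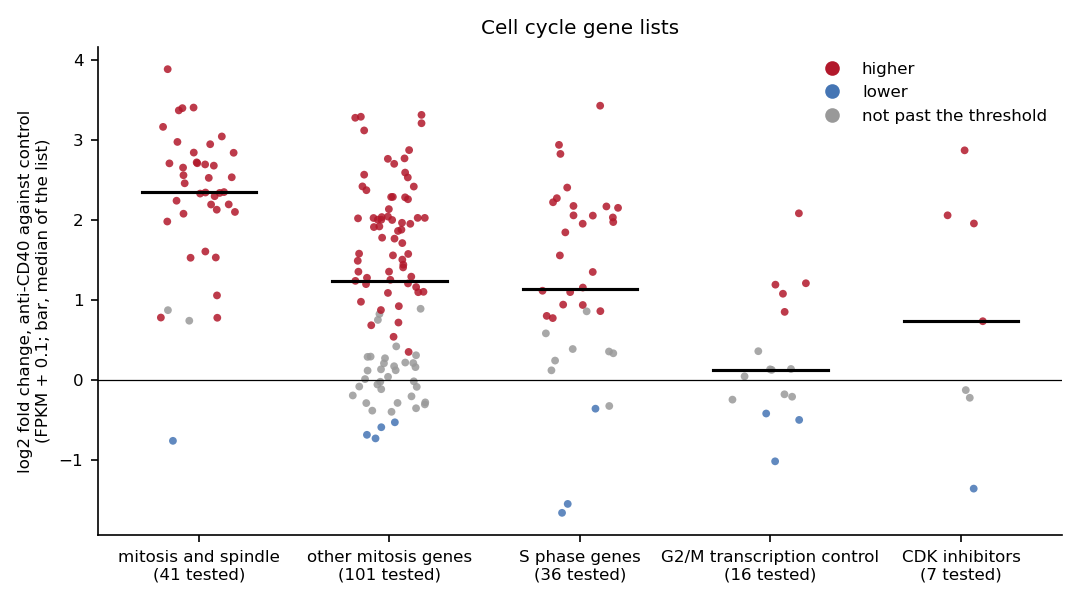
Log2 fold change of each tested gene in 5 cell cycle lists (points, spread sideways only for display; bar, median of the list), with genes that rose in red, genes that fell in blue and the others in grey. The medians are 2.35 for the mitosis and spindle genes, 1.24 for other mitosis genes, 1.14 for S phase genes, 0.13 for the control of G2/M transcription and 0.74 for the CDK inhibitors.

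Markers of some cell types also differed between the groups. Sums of FPKM over a marker list are led by its most abundant genes, such as S100a8 and S100a9 for neutrophils and Gzma for NK cells, and are compared only between mice. Hepatocyte markers were lower after anti-CD40 (7 of 8 fell, summed FPKM 6881 to 8628 against 20886 to 36662), and so were Kupffer cell markers (5 of 5, 37.2 to 48.1 against 267.9 to 425). Higher sums were found for neutrophils (6 of 6 rose, 4204 to 5185 against 18.1 to 152), monocytes and macrophages (6 of 8 rose and 1 fell, 285 to 401 against 45.3 to 80.5), T cells (7 of 8 rose, 12.5 to 14.4 against 2.99 to 5.24), NK cells (6 of 6 tested, 62.6 to 86.7 against 3.12 to 12.2) and B cells (5 of 5 tested, 25.7 to 36.7 against 1.84 to 7.18). Of 6 markers of granulocyte precursors, 2 were tested and rose (Prtn3, 4.18 to 8.23 FPKM against 0.461 to 2.98, and Ctsg). The other 4 were under the filter. The sum, led by Prtn3, was 4.88 to 9.05 against 0.526 to 3.09. Elane was read 1 to 2 times per anti-CD40 mouse and 0 to 3 times per control mouse, and Mpo 3 to 10 and 0 to 8 times. Ctsg (control mean 0.0386 FPKM) met the filter only through its level after anti-CD40. The same holds for other markers that rose, such as Mmp8 (0.0323), Cxcr2 (0.0556), Eomes (0.0207), Cd79a (0.0878) and Cd8a (0.0946). The counts of the marker lists include such genes. Klf1, a factor of erythroid precursors, and Epor fell, and no erythroid marker of 8 tested rose. For the bile duct, 2 of 5 markers tested rose, for dendritic cells 4 of 5 and for plasma cells 2 of 5. For endothelium 2 of 7 rose and 3 fell, and for stellate cells 3 of 7 rose and 3 fell. Over all genes tested, 23.5% rose and 21.7% fell. None of the marker lists is read here as a change in the number of cells of a type. In RNA of whole tissue, that cannot be told apart from a change of marker RNA in each cell. The part of each cell type in the rise of the mitosis genes was not tested. Control mouse 4 had the largest sum of erythroid markers (50541, against at most 14328 in any other mouse), and anti-CD40 mouse 5 had the largest sum of pancreatic acinar markers (1036, against at most 190 in any other mouse). Without both of these mice, 38 of 41 members tested rose and 1 fell, with a median of 2.47.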

How the data were processed

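RNA of whole liver from 9 mice was made into 3′ libraries by the authors, who mapped the reads to mm10 with STAR. The authors then made FPKM values with Cufflinks and CuffDiff and deposited 1 per gene and mouse, with a floor of 0.01 and FAIL where an estimate failed. The annotation and any filter on the table are not given in the sources used here. The 15 genes with a failed estimate were left out, leaving 24326. Groups came from the sample labels, which name no batch.

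FPKM was tested as log2(FPKM + 0.1) in 13807 genes with limma 3.58.1 in R 4.3.3 (lmFit and trended eBayes, 2-sided, no covariate beside treatment), with adjustment over all of them. CuffDiff could not be rerun from FPKM. A count test was not run, because whole reads were recovered (tolerance 0.05) for 26 members only. The largest distance from a whole number among these was 0.0294, and 91.0% of 2203 low genes gave whole reads in every mouse. The absolute depth is unknown, and reads cover counting error only.

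The members, lists and tests were chosen with earlier results of these data known. Values in every mouse are given for the largest and smallest called change in each role and for members not called or not tested. From other lists the 3 largest called genes, called genes against the majority and all CDK inhibitors are named, and any other gene of those lists or of the markers was named after its values were seen. The values of 1 gene that the rule names are not reported here. Promoters are RefSeq windows on GRCm38.p6, the assembly behind mm10, and for genes with several windows the first was counted. Strand at the 3′ ends was read from GENCODE. Scripts were tested on simulated data. Python 3.11.15 with numpy 2.4.6, pandas 2.3.3 and matplotlib 3.10.9 did the other steps. Alternatives were other pseudocounts, filters, scalings and eBayes settings, and leaving out each mouse. Leaving out mice 4 and 5 together was chosen after seeing the data.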

Additional observations from a re-analysis of the deposited data

Results flagged for a closer look

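Of 53 results examined, 3 had 1 control mouse so far from the other 5 that its gap took up over 0.625 of the range of the group. Chance gives about 1 in 20, or 2.65 of 53. For Mad2l1, control mouse 3 was lowest, at 0.276 FPKM, with a gap of 0.682 of the range. For Kif18b, control mouse 11 was highest, at 0.0169 FPKM, and the gap was 1, the whole range, since the other 5 controls were at the floor. This is a single read. For Cdkn2d, control mouse 11 was lowest, at 9.10 FPKM, with a gap of 0.652 of the range. In all 3 genes every anti-CD40 mouse remained above every control mouse.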

How the results depend on the processing

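Over 19 alternatives, 198 counts and medians of the lists stayed close to their reported value and 11 moved, by over 1.5 times for a count or by more than the SD between anti-CD40 mice (0.154) for the median. With 1 mouse left out at a time, 36 to 41 members rose and 1 fell. With a mean FPKM of at least 1, 21 members were tested and 18 rose. That filter also uses the mean over all mice. Some members that rose, such as Ccnb1 (control mean 0.380 FPKM) and Top2a (0.798), met it only through their level after anti-CD40. The count and the median under that filter include such genes. At that filter 22 of 54 other mitosis genes and 3 of 12 genes controlling G2/M transcription rose. In the main fit these were 64 of 101 and 5 of 16. Of all genes tested, 21.5% rose at that filter and 23.5% in the main fit. The median over members, on the log2 scale, was 1.02 for a pseudocount of 1, 3.00 for one of 0.01, 2.53 under the filter at 1 FPKM, 2.00 after quantile normalization, and 2.30 to 2.5 with 1 mouse left out at a time. With Saa1, Saa2 and Saa3 left out and the mice rescaled to the same total, the median of all genes moved to 0.35 and that of the members to 2.65. There, 1 other mitosis gene and 1 gene controlling G2/M transcription fell, and Cdkn1b (0.24) and Cdkn2c (0.14) turned sign without passing the threshold, while Ccnf (1.23) and Spc25 (1.10) passed it. Other mitosis genes that fell numbered 3 to 7 with 1 mouse left out at a time, with 7 without control mouse 4. The call of Cdkn1a was lost without a filter, at the same log2 fold change of 2.87 (limma adjusted p = 0.0565 over more genes), and without mice 4 and 5 (log2 fold change 2.54, limma adjusted p = 0.0579). Low members rest on few reads: Kif18b had 7 at most. No paired analysis was possible because the 2 groups share no mouse number.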
